A study of Mus musculus with 5 samples.

Results

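The genes described here are the 3 retinoid X receptors (Rxra, Rxrb and Rxrg), the 3 retinoic acid receptors (Rara, Rarb and Rarg) and 3 genes of retinoid handling (Crabp1, Rbp4 and Aldh1a1). They were chosen by name, and all 9 were found among the 15093 genes listed. The choice was made with the difference between the groups already known, so fold changes of these 9 genes are a description and carry no test.

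Messenger RNA bound to tagged ribosomes was sequenced by translating ribosome affinity purification (TRAP), in which ribosomes of a chosen cell type carry EGFP and are pulled down with their RNA. The mice were adult Drd2-TRAP animals in both groups, which carry Cre under control of Drd2 and a Cre-dependent EGFP-L10a ribosomal protein, so that any cell that has expressed Cre is tagged. Bilateral 1 mm punches of the central amygdala (CeA) from 3 animals were pooled for each library, and RNA was sequenced from 3 fear conditioned libraries (replicates 2, 3 and 4) and 2 home cage control libraries (replicates 6 and 7). The sample labels place collection 2 h after fear extinction and call the controls home cage, whereas the text of the study describes tone-exposed controls in its results, HC controls in its methods, and collection after conditioning. Each library is a separate pool. The p-values given for other genes set the difference between groups against the spread between pools. For each gene that spread is taken as equal in both groups.

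Retinoic acid is made from dietary vitamin A and acts inside the nucleus. Retinoic acid receptors (RARs) bind it and sit on DNA as heterodimers with retinoid X receptors (RXRs), on pairs of short half-sites called retinoic acid response elements. RXRs also pair with thyroid hormone receptors, liver X receptors, peroxisome proliferator-activated receptors and the orphan receptors of the Nr4a family. In the striatum, Rarb and Rxrg are prominent retinoid receptors of projection neurons, and Drd2 is a known retinoic acid target.

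Reads on genes, recovered from the deposited values, numbered between 19605318 and 27937520 per library. Values are in counts per 1000000 of an effective library size (CPM), and 3 reads, the floor of detection used here, were worth between 0.1002 and 0.158 CPM. This floor covers counting error only. Between 159 and 349 genes were listed at 0 in the fear conditioned libraries, 976 in home cage replicate 6 and 2681 in home cage replicate 7. The biological coefficient of variation between libraries was 0.229 among fear conditioned and 0.696 among home cage libraries. The 23 matched striatal projection neuron markers summed to between 30595 and 35483 CPM after fear conditioning, against 13528 and 20776 CPM in controls, and none was at 0 in any library. The 10 CeA neuron markers summed to between 184 and 343 CPM and to 348 and 590.0 CPM. All 10 were found, with Tac2 at 0 in home cage replicate 7.

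The sequences before the starts of Rarb and Rxrg are shown because these are the RAR and the RXR gene with the highest mean level per length. They are the 250 bases upstream of each RefSeq start in GRCm38.p6, written 5′ to 3′ on the strand of the gene. Capitals mark retinoic acid response half-sites (the consensus AGGTCA, the variant AGTTCA, the variant GGGTCA or the variant GGTTCA) on either strand, so that a half-site on the opposite strand appears as its reverse complement. RefSeq gives Rarb 1 start with a window at chr14:16575477-16575726 on the minus strand, and Rxrg 2 starts with windows at chr1:167598112-167598361 and chr1:167618015-167618264 on the plus strand.
Rarb: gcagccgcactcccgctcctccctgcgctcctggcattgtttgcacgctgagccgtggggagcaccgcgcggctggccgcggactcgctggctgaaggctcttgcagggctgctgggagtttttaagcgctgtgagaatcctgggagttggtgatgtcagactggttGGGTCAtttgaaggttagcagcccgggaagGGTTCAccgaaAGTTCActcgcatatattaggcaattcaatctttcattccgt
Rxrg, first start: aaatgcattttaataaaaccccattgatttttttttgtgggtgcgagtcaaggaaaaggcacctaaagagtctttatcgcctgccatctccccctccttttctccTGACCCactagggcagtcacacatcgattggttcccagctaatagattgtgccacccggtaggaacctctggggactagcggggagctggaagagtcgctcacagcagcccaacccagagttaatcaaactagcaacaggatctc
Rxrg, second start: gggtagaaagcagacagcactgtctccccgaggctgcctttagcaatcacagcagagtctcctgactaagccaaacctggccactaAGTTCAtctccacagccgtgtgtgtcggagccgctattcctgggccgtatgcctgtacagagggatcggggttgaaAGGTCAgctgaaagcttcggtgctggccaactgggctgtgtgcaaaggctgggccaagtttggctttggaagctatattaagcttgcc

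In the Rarb window, the half-sites GGTTCA and AGTTCA are separated by 5 bases and point the same way, from base -53 to base -37 before the start. This direct repeat of 17 bases reads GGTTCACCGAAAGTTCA. Another half-site, GGGTCA, lies at -83 to -78. A direct repeat spaced by 5 bases is the classical arrangement bound by an RAR and RXR pair, and Rarb is itself a known retinoic acid target. Across the 32851 RefSeq promoter windows of the mouse (250 bases before and 50 after a start), 0.0974% held such a repeat on either strand. Of the 18 windows of the 9 genes, the Rarb window was the 1 that held it. Repeats spaced by 1 or 2 bases were found in 0 of the 18 windows, against 0.222% and 0.268% of all windows. Among the 53 other retinoid pathway genes that had a window, Cyp26a1 held the repeat spaced by 5 and Bco1 the repeat spaced by 1. Neither Cyp26a1, which breaks down retinoic acid, nor Bco1, which cleaves carotene, was found among the genes listed, so no expression is given for them.

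Single half-sites, counted also where they form part of a repeat, were in 9 of the 18 windows and at 7 of the 9 genes, against 43.7% of all windows. The first Rxrg window held 1, on the minus strand at -145 to -140. The second held 2, on the plus strand at -164 to -159 and at -88 to -83, and these 2 are too far apart for any repeat searched. The windows of Rxrb and Crabp1 held none of these letters. A match is a match of letters in a window, and binding was not measured.

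The RXRs were present in all 5 libraries, and they differed in which group was higher. Rxrg (ENSMUSG00000015843), the RXR enriched in striatal neurons, had 282, 319 and 447 CPM in fear conditioned replicates 2, 3 and 4 and 152 and 91.6 CPM in home cage replicates 6 and 7. Every fear conditioned library was above both controls, and the lowest of them was 1.86 times the higher control. The log2 fold change on the log2(CPM + 1) scale was 1.53 (SE 0.32). Rxrb (ENSMUSG00000039656), which is found in most tissues, had 184, 254 and 182 CPM after fear conditioning, against 150.0 and 109.8 CPM in controls. The groups again did not overlap, with the lowest fear conditioned library 1.21 times the higher control, and the log2 fold change was 0.67 (SE 0.26).

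Rxra (ENSMUSG00000015846), also a widely expressed receptor, was the 1 gene of the 9 that was lower in every fear conditioned library. Its values were 24.9, 23.5 and 22.2 CPM after fear conditioning, against 27.1 and 48.9 CPM in controls. The fear conditioned libraries lay within 1.12 times of each other, and the higher control was 1.81 times the lower one. The log2 fold change was -0.61 (SE 0.39). Leaving out home cage replicate 7 gave -0.20, and leaving out home cage replicate 6 gave -1.03.

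**Figure D1:**
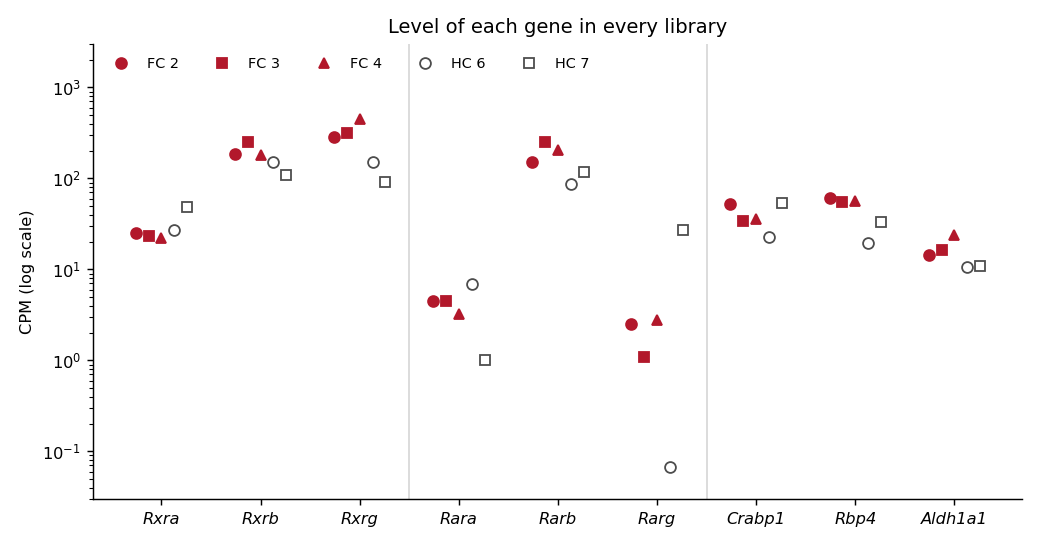
Value of each of the 9 genes in every library, in CPM on a log axis. Filled red symbols are fear conditioned (FC) replicates 2, 3 and 4, and open symbols are home cage (HC) replicates 6 and 7. Rxrg lies between 282 and 447 CPM in FC and at 152 and 91.6 CPM in HC, and Rarg spans 0.0668 to 27.4 CPM in HC.

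The 3 RXRs are compared with each other per kilobase (kb) of the deposited gene length, which is 5359 bases for Rxra, 3779 for Rxrb and 2583 for Rxrg. Rxrg held 67.2%, 63.3% and 76.8% of the summed RXR signal per kb after fear conditioning, against 56.8% and 48.2% in controls. Rxrb held 30.0%, 34.4% and 21.4% after fear conditioning, against 38.3% and 39.4% in controls. Rxra held 2.86%, 2.25% and 1.84%, against 4.88% and 12.4%. All 3 shares were without overlap between the groups, Rxrg higher and the other two lower in fear conditioned libraries. On the scale of CPM, with no division by length, the share of Rxrg was 59.9% ± 7.83 (SD, n = 3) against 41.4% ± 6.78 (SD, n = 2). The summed RXR signal was 163, 195 and 225 CPM per kb after fear conditioning and 104 and 73.6 CPM per kb in controls.

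The log2 ratio of Rxrg to Rxra, which does not depend on the scaling of a library, was 3.50, 3.76 and 4.33 after fear conditioning, against 2.49 and 0.90 in controls. It was therefore higher in each of the 3 fear conditioned libraries, and the controls differed from each other by more than the fear conditioned libraries did. The ratio of Rxrg to Rarb was 0.89, 0.35 and 1.11 against 0.79 and -0.37, and these groups overlapped.

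Among the RARs, nearly all of the signal was Rarb. Rarb (ENSMUSG00000017491), the RAR prominent in the striatum, had 152, 249.9 and 207 CPM after fear conditioning, against 87.8 and 118.5 CPM in controls. Every fear conditioned library was above both controls, by at least 1.28 times, and the log2 fold change was 0.96 (SE 0.29). Its share of the summed RAR signal per kb was 96.8%, 98.4% and 98.0% after fear conditioning and 94.3% and 86.5% in controls.

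Rara (ENSMUSG00000037992), the receptor that in most tissues is the widely expressed RAR, had 4.50, 4.50 and 3.23 CPM after fear conditioning. The controls had 6.85 and 1.00 CPM, on either side of the fear conditioned group. In reads these were 95, 108 and 65 against 205 and 19. The log2 fold change was 0.35 (SE 0.74), with a sign that turned to -0.64 when home cage replicate 7 was left out and to -0.088 with quantile normalization.

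Rarg (ENSMUSG00000001288), known from skin and cartilage, was the most variable gene of the 9. It had 2.51, 1.08 and 2.78 CPM after fear conditioning, from 53, 26 and 56 reads. In controls it had 0.0668 CPM from 2 reads in replicate 6, under the floor of 3 reads, and 27.4 CPM from 520 reads in replicate 7. The fear conditioned libraries lay between the 2 controls. The log2 fold change of -0.86 (SE 1.35) became 1.50 without home cage replicate 7 and -3.23 without replicate 6.

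**Figure D2:**
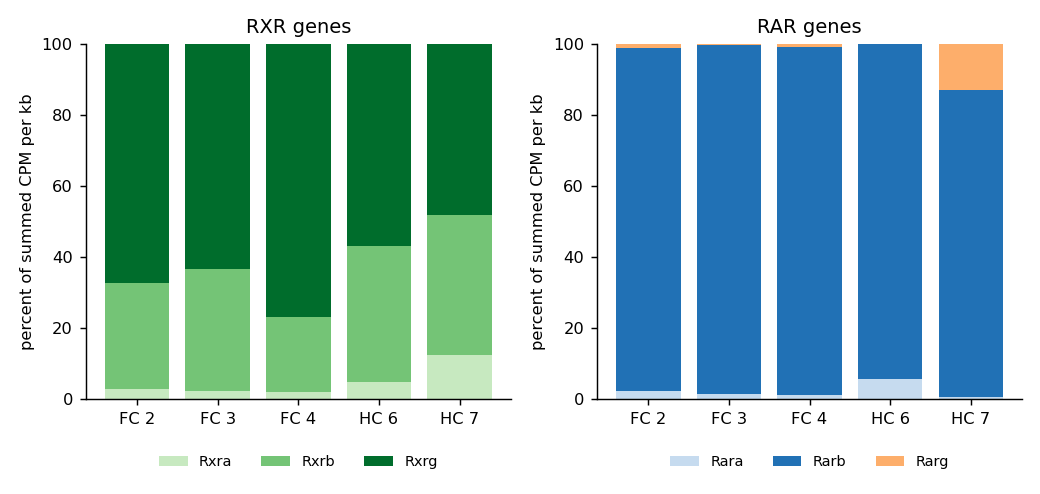
Share of each gene in the summed CPM per kb of the RXR genes (left) and of the RAR genes (right), in percent, for each library. Rxrg takes 63.3% to 76.8% of the RXR signal in fear conditioned (FC) libraries and 48.2% to 56.8% in home cage (HC) libraries, and Rarb takes at least 86.5% of the RAR signal in each.

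The 3 genes of retinoid handling fell into 2 that did not overlap between the groups and 1 that did. Rbp4 (ENSMUSG00000024990), which encodes the secreted carrier of retinol, had 60.8, 55.4 and 56.6 CPM after fear conditioning, against 19.6 and 33.1 CPM in controls. The fear conditioned libraries lay within 1.10 times of each other, and the lowest was 1.68 times the higher control. The log2 fold change was 1.14 (SE 0.33).

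Aldh1a1 (ENSMUSG00000053279), an enzyme that oxidises retinaldehyde to retinoic acid, had 14.6, 16.3 and 23.7 CPM after fear conditioning, against 10.7 and 10.97 CPM in controls. It was the gene of the 9 on which the controls lay closest, 1.03 times apart, and all 3 fear conditioned libraries were above them. The log2 fold change was 0.67 (SE 0.46). Crabp1 (ENSMUSG00000032291), which binds retinoic acid in the cytosol, had 51.8, 33.6 and 35.8 CPM after fear conditioning, against 22.6 and 54.2 CPM in controls. These controls enclosed the fear conditioned group, and the log2 fold change was 0.17 (SE 0.46).

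Of the 9 genes, 5 (Rxrb, Rxrg, Rarb, Rbp4 and Aldh1a1) were higher in every fear conditioned library than in both controls, against 20.2% of the 13560 genes tested. Rxra was lower in every fear conditioned library, against 16.1% of the genes tested, and 3 (Rara, Rarg and Crabp1) overlapped. All 9 passed the filter of a mean of at least 1 CPM. With limma, where a call needed a Benjamini-Hochberg adjusted p below 0.05 and a log2 fold change beyond 0.5 in size, 0 of the 9 were called, and 0 (0%) of the 13560 genes. An unadjusted p below 0.05 was reached by 2280 genes (16.8%). With edgeR's quasi-likelihood test on the recovered reads, 0 of 14489 genes (0%) were called and 2404 (16.6%) had an unadjusted p below 0.05. DESeq2 on the recovered reads called 1296 of 14489 genes (8.94%).

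The size of these differences varied with which home cage library entered. Without home cage replicate 6, the log2 fold change was 1.89 for Rxrg, 0.89 for Rxrb, 0.74 for Rarb, 0.78 for Rbp4 and 0.65 for Aldh1a1. Without home cage replicate 7, it was 1.17 for Rxrg, 0.44 for Rxrb, 1.17 for Rarb, 1.50 for Rbp4 and 0.69 for Aldh1a1. The direction of these 5 genes could not change here, because each had every fear conditioned library above both controls. Rxrg and Rxrb were lower in replicate 7 than in replicate 6, and Rarb and Rbp4 were the other way round. Limma with replicate 6 left out called 8025 of 13268 genes (60.5%), and with replicate 7 left out 3722 of 13550 genes (27.5%). Both fits assume that the lone control varies as the fear conditioned libraries do.

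**Figure D3:**
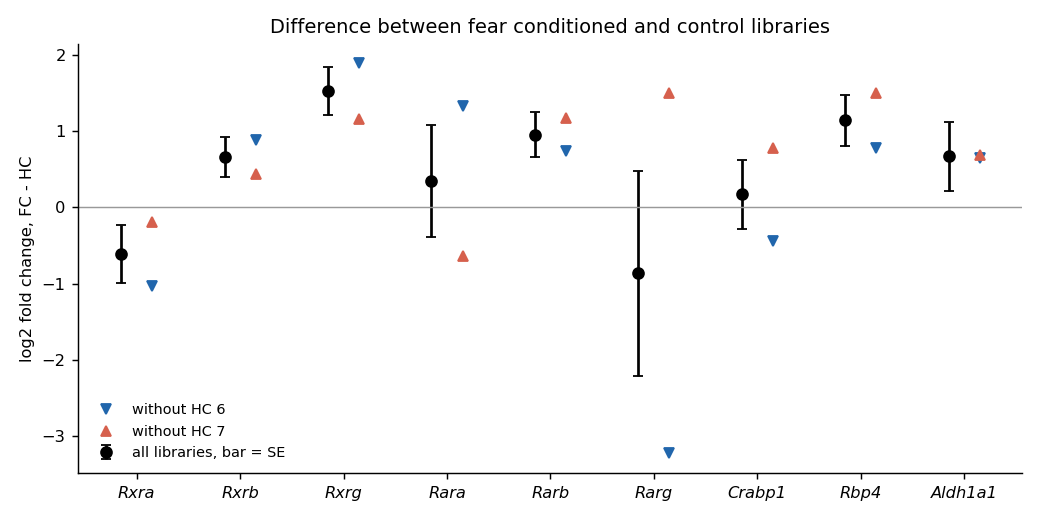
Log2 fold change on the log2(CPM + 1) scale, fear conditioned (FC) minus home cage (HC), for the 9 genes. Black points are the estimate from all 5 libraries with its standard error, and triangles are the estimates without HC replicate 6 or 7. Rxrg is at 1.53, with 1.89 and 1.17 when 1 control is left out, and the estimate for Rarg runs from -3.23 to 1.50.

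Ordered by mean CPM per kb over all 5 libraries, the genes were Rxrg (group means of 135 after fear conditioning and 47.1 in controls), Crabp1 (49.6), Rarb (46.9), Rxrb (46.6), Rbp4 (35.0), Aldh1a1 (7.47), Rxra (5.47), Rarg (1.26) and Rara (0.881). Rxrg was first in 4 of the 5 libraries, with 109, 124 and 173 CPM per kb after fear conditioning and 58.8 in home cage replicate 6. In home cage replicate 7 it was second, at 35.5, behind Crabp1 at 67.9 CPM per kb. Its value per kb was above that of between 85.9% and 97.5% of the listed genes.

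Crabp1, Rarb and Rxrb were not separated from each other, since Crabp1 was above Rarb in 3 of 5 libraries and Rarb above Rxrb in 3 of 5. Rxrb was above Rbp4, and Rbp4 above Aldh1a1, in all 5. Aldh1a1 was above Rxra in 4 of 5 libraries. The last place was not settled either: Rarg was above Rara in 1 library, home cage replicate 7, and that library gave Rarg the higher mean. In the fear conditioned libraries, Rara had between 0.708 and 0.988 CPM per kb and Rarg between 0.201 and 0.517 CPM per kb. Rara was above at most 26.1% of the listed genes per kb.

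The tagged cells are selected through Drd2, and markers of striatal projection neurons had higher values in the fear conditioned libraries. All 23 matched striatal markers had a log2 fold change above 0 (median 1.03), and 16 of the 23 were higher in every fear conditioned library. Penk, the enkephalin precursor of Drd2 striatal neurons, had 16076, 13565 and 14950.0 CPM against 6098 and 8606 CPM. Drd2 had 326, 375 and 555 CPM against 128 and 262 CPM, and Adora2a, the adenosine receptor of the same neurons, had 453, 771 and 775 CPM against 104.6 and 275 CPM. The sum of the 10 CeA neuron markers was lower in every fear conditioned library, at most 343 CPM against at least 348 CPM. Of these 10 genes, 7 had a log2 fold change below 0 (median -0.66) and 3 above. Sums of 6 other lists were also lower in every fear conditioned library. The 10 astrocyte markers summed to between 913 and 1154 CPM against 2366 and 3006 CPM. The 11 choroid plexus markers summed to between 63.0 and 113 CPM against 1053 and 1472 CPM. Most of these control sums was Ttr alone, at 913 and 1320 CPM, and 10 of the 11 genes were lower after fear conditioning. The 10 oligodendrocyte markers summed to between 1284 and 2732 CPM against 2815 and 5384 CPM. The 6 leptomeningeal markers summed to between 16.7 and 24.0 CPM against 81.0 and 91.4 CPM, the 10 endothelial and mural markers to between 16.8 and 49.5 CPM against 109.97 and 112 CPM, and the 10 microglia markers to between 75.8 and 141 CPM against 169 and 178 CPM. None of the astrocyte, oligodendrocyte and microglia markers was at 0 in any library, Tek was at 0 in both controls and Steap1, of the choroid plexus list, in all 3 fear conditioned libraries. The 15 pallial glutamatergic markers went the other way in their sum, between 4107 and 4513 CPM against 2311 and 3797 CPM. Nrgn, named after its values were seen, made up between 64.5% and 89.9% of that sum, and 10 of the 15 genes had a log2 fold change below 0 (median -0.66). The part of these differences in the values of the retinoid genes was not tested. In punches pooled in this way, fewer cells of a type and less RNA per cell cannot be told apart.

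Set against Drd2 library by library, the ratios of Rxra and Crabp1 were lower in every fear conditioned library, and those of the other retinoid genes overlapped. Drd2 itself was higher in every fear conditioned library, so a gene with unchanged CPM has a lower ratio there. Crabp1 overlapped between the groups in CPM. The share of all genes with such ratios was not computed. The log2 ratio of Rxrg to Drd2 was -0.21, -0.23 and -0.31 in the fear conditioned libraries. The controls stood on either side, at 0.24 and -1.51. Its ratio to Adora2a was -0.68, -1.27 and -0.80, against 0.54 and -1.59. The ratio to Ppp1r1b, a phosphoprotein of dopamine signalling named after its values were seen, was -3.54, -3.46 and -3.004, against -2.82 and -4.72. Rarb to Drd2 was -1.10, -0.58 and -1.42, against -0.55 and -1.14, and Rbp4 to Drd2 was -2.42, -2.76 and -3.29, against -2.71 and -2.98. Rbp4 followed Penk closely over all 5 libraries, with log2 ratios of -8.05, -7.94 and -8.05 after fear conditioning and -8.28 and -8.02 in controls. Rxra to Drd2 was -3.71, -3.995 and -4.64, against -2.24 and -2.42, and Crabp1 to Drd2 was -2.65, -3.48 and -3.95, against -2.50 and -2.27. These 2 ratios and that of Rxrg to Rxra, given above, were those plotted whose groups did not overlap. These pairs share the libraries in which they were compared, and none was tested.

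**Figure D4:**
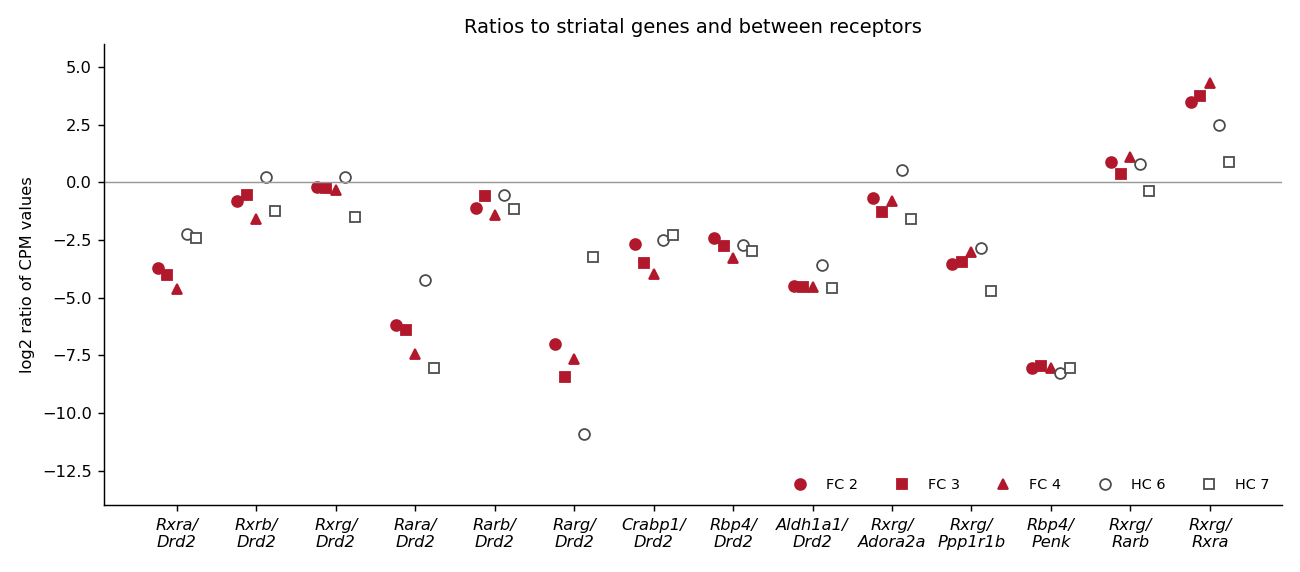
Log2 ratio of CPM values for each of the 9 genes to Drd2 and for further pairs, in each library, with fear conditioned (FC) libraries filled and home cage (HC) libraries open. Rxrg to Drd2 lies between -0.31 and -0.21 in FC and at 0.24 and -1.51 in HC, and Rxrg to Rxra lies between 3.50 and 4.33 in FC and at 2.49 and 0.90 in HC.

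The profiles of the 9 genes over the 5 libraries were also compared directly, by the root mean square difference between log2(CPM + 1) values, each gene centred on its own mean. Over the 36 pairs, the smallest difference was that of Rarb and Rbp4 (0.301), followed by Rarb and Aldh1a1 (0.316) and Rxrb and Rarb (0.344). The largest was that of Rara and Rarg (2.24). Rxrg differed from Aldh1a1 by 0.485, from Rarb by 0.521, from Rxrb by 0.533 and from Rxra by 1.19. Among all genes with a mean of at least 10 CPM, those with a profile most like Rxrg were BC030500 (0.112), Ppp1r37 (0.130), 4930455C21Rik (0.131), Msl2 (0.139) and Xrcc6bp1 (0.170). Each of these 5 had its highest value in fear conditioned replicate 4 and its lowest in home cage replicate 7, as Rxrg did. BC030500, for example, had 28.8, 28.3 and 40.7 CPM against 16.0 and 7.70 CPM.

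A wider list of 73 genes of retinoid import, synthesis, breakdown and action was compared in the same limma fit. Of these, 50 were in the table and 44 passed the filter, and 0 of the 44 were called. With an unadjusted p below 0.05, 5 were higher (11.4% of the 44, against 9.49% of all genes tested) and 3 lower (6.82%, against 7.32%). The median log2 fold change of the 44 was -0.19, against 0.08 for all genes tested. The groups did not overlap for 7 higher genes (15.9%, against 20.2% of all) and 6 lower genes (13.6%, against 16.1%). DESeq2 on the recovered reads called 7 of 50 (14.0%, against 8.94% of all genes), 4 higher and 3 lower.

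In retinoid import, binding and storage, 8 of 15 listed genes were found, and 3 had a log2 fold change above 0 and 5 below. The median was -0.25, with Crabp2 as fitted or at its bound. Ttr, which carries Rbp4 and thyroid hormone in plasma and cerebrospinal fluid and is the main product of choroid plexus, had 0.522, 22.1 and 0.348 CPM against 913 and 1320 CPM. Its log2 fold change was -8.25 (SE 1.24, adjusted p = 0.197 with limma), opposite in direction to that of Rbp4. Crabp2, another cytosolic binder of retinoic acid that delivers it to the nucleus, had 2.70, 1.79 and 3.43 CPM and 0 reads in both controls. Against the floor of 3 reads in each library it was at least 20.4-fold higher. That bound covers counting error only, not the spread between pools. The fitted log2 fold change of Crabp2 was 1.84 (SE 0.51, adjusted p = 0.211 with limma). Stra6, the membrane receptor of Rbp4, had 1.52, 0.750 and 0.348 CPM against 0 and 20.1 CPM, an overlap. Lpl, a lipase, had a log2 fold change of 0.65 (SE 0.49, adjusted p = 0.523 with limma).

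In retinoic acid synthesis, 11 of 19 genes were found and 10 tested, 4 above 0 and 6 below, with a median of -0.15. Rdh14, a retinol dehydrogenase, had 84.7, 69.5 and 80.8 CPM against 40.1 and 36.2 CPM, without overlap (log2 fold change 1.02, SE 0.25, adjusted p = 0.200 with limma). The 2 highest log2 fold changes were those of Rdh13 (1.20, SE 1.07) and of Aldh1a2 (1.12, SE 0.57), the relative of Aldh1a1 that makes retinoic acid in the meninges. Aldh1a2 was at 2.66, 2.33 and 2.19 CPM against 1.30 and 0.0527 CPM, the last from 1 read, and Rdh13 overlapped. The 2 lowest were those of Rdh11 (-1.15, SE 0.50), without overlap at 23.3, 19.6 and 17.9 CPM against 27.3 and 77.0 CPM, and of Rdh5 (-1.12, SE 1.13), which overlapped. Adjusted p for these 4 lay between 0.317 and 0.634. Rdh12, under the filter, had 8, 36 and 49 reads against 0 in both controls.

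Of the 3 enzymes of retinoic acid breakdown, Cyp26b1 was found. It had 21.4, 10.3 and 8.94 CPM against 16.2 and 31.0 CPM, an overlap, with a log2 fold change of -0.79 (SE 0.57, adjusted p = 0.506 with limma). It stands also among the CeA markers.

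Of 13 RXR partners, 11 were found and 7 tested, 5 above 0 and 2 below, with a median of 0.14. Nr4a2, an activity-regulated orphan receptor, had 11.7, 40.9 and 4.97 CPM against 1.67 and 2.95 CPM. It was higher in every fear conditioned library, with fear conditioned replicate 3 far above the others (log2 fold change 2.18, SE 0.90, adjusted p = 0.298 with limma). Nr1h3, a liver X receptor, overlapped between groups (1.43, SE 0.79), whereas its relative Nr1h2 had 98.2, 105 and 79.4 CPM against 67.3 and 20.0 CPM without overlap (1.32, SE 0.51, adjusted p = 0.277). The lowest were the thyroid hormone receptors Thrb (-0.67, SE 0.47) and Thra (-0.48, SE 0.40), and both overlapped. Pparg, under the filter, had 32, 34 and 14 reads against 0 in both controls.

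All 12 coregulators were tested, 4 above 0 and 8 below, with a median of -0.28. The coactivator Ncoa2 had 32.7, 52.6 and 45.7 CPM against 101 and 89.1 CPM (log2 fold change -1.13, SE 0.30, adjusted p = 0.206 with limma). Med1, the subunit that links the Mediator complex to nuclear receptors, had 34.1, 35.8 and 33.7 CPM against 70.3 and 82.9 CPM (-1.12, SE 0.26, adjusted p = 0.197). Both were lower in every fear conditioned library. The coactivator Ncoa3 was higher in each, at 2.42, 3.83 and 4.32 CPM against 0.501 and 0.475 CPM (1.58, SE 0.53, adjusted p = 0.240). Hdac3, the deacetylase of corepressor complexes, overlapped (0.94, SE 0.51).

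Of 18 known retinoic acid targets, 13 were found and 12 tested, 4 above 0 and 8 below, with a median of -0.24. Among the 13 are 6 genes that also stand in the lists above. The 2 highest were Crabp2 and Drd2, the latter at 1.15 (SE 0.38, adjusted p = 0.239 with limma), and the 2 lowest were Stra6 (-1.34, SE 1.26) and Cyp26b1. Meis2, a homeobox gene of striatal and CeA neurons named here after its values were seen, had 429, 578 and 624 CPM against 372 and 597 CPM, an overlap.

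**Figure D5:**
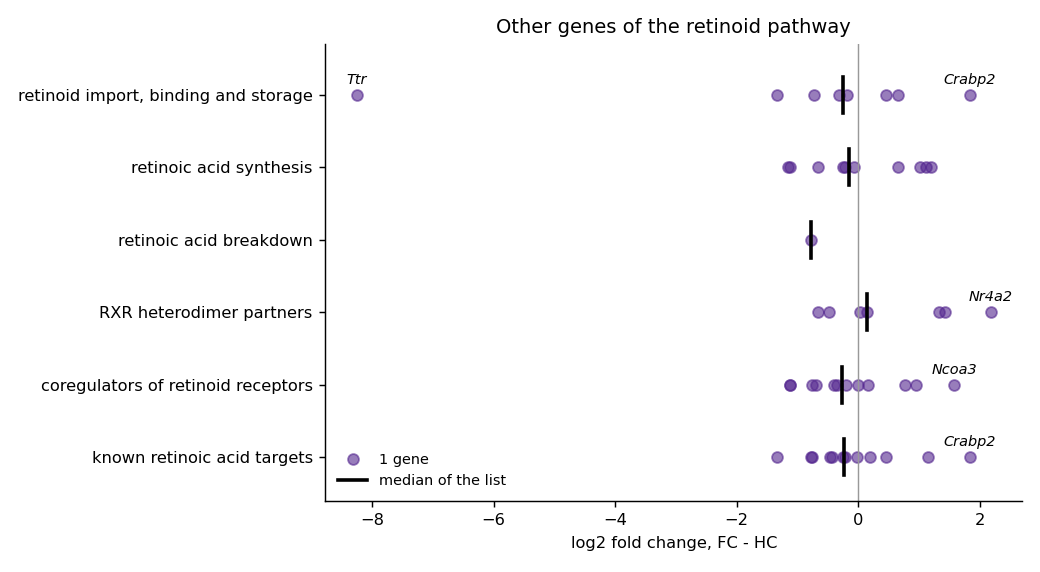
Log2 fold change on the log2(CPM + 1) scale, fear conditioned (FC) minus home cage (HC), for each tested gene of the 6 pathway lists, with a bar at the median of a list. Medians lie between -0.79 for the breakdown list of 1 gene and 0.14 for the RXR partners, Ttr is at -8.25, and named genes are those past 1.5 in size.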

How the data were processed

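TRAP-seq was analysed in 5 libraries, 3 fear conditioned and 2 home cage, grouped by their labels. The submitters' processing notes name DESeq and the genome build mm8. The aligner and whether counting used strand are not given in the sources used here. The authors deposited a normalized signal per gene and library, in CPM of an effective library size, with a gene length. All values were whole multiples of 1 read within 0.01 (100%), which gave recovered reads, and no column was left unused.

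The 9 genes and all lists were chosen with earlier results of these data known. Genes with a mean of at least 1 CPM were compared with limma 3.58.1 (trend) on log2(CPM + 1), two-sided, with Benjamini-Hochberg adjustment, at an adjusted p of 0.05 and an absolute log2 fold change of 0.5. On this scale the change of genes with low values depends on the pseudocount and can be understated. For Rarg it was larger in size, at -0.86 against -0.048 with a pseudocount of 0.1. As alternatives, recovered reads entered edgeR 4.0.16 and DESeq2 1.42.0 (R 4.3.3). The scripts were tested on simulated data with the same spread in both groups, so their behaviour at the unequal spread seen here was not tested. The groups share no replicate numbers. Named pathway genes are the 2 highest and 2 lowest log2 fold changes of each list with Ttr, Drd2, Adora2a and Penk. Other pathway genes named (Rdh10, Rdh12, Rdh14, Nr1h2, Pparg, Rlbp1 and Meis2) were chosen after their values were seen. Promoter windows are from RefSeq, assembly GRCm38.p6, and all 9 genes were matched by symbol. Alternatives tried were another pseudocount, filter, normalization, threshold or count test, and leaving out each library. Python 3.11.15, numpy 2.4.6, pandas 2.3.3 and matplotlib 3.10.9 were used.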

Additional observations from a re-analysis of the deposited data

How the results depend on the processing

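Limma called 0 genes, 0 of the 9 retinoid genes and 0 of the pathway genes with a pseudocount of 0.1, no filter, at least 1 CPM in every library, quantile normalization, TMM scaling, an adjusted p of 0.1 or no fold change limit, and so did edgeR. DESeq2 called 1296 genes (8.94% of 14489), 1 of the 9 (11.1%, Rxrg) and 7 pathway genes (14.0% of 50). With 1 library left out, the counts ranged from 0 to 8025 genes, 0 to 6 of the 9 and 0 to 25 pathway genes. The highest of these counts all come from the fit without home cage replicate 6. There the spread of the lone control is assumed to be that of the fear conditioned libraries, so nothing is concluded from them. With a fear conditioned library left out, at most 1 gene, 0 of the 9 and at most 1 pathway gene were called. Counts of the 9 are a description, since the genes were chosen with this contrast known. Of the 9 alternatives other than leaving out a library, 5 changed the estimates of the 9 genes, and of these 45 estimates 1 changed direction, that of Rara with quantile normalization (-0.088). Rarg kept its direction but not its size, from -2.77 with DESeq2 to -0.048 with a pseudocount of 0.1, against -0.86 in the main fit. Rarg gave no value with at least 1 CPM in every library. With 1 library left out, Rara ranged from -0.64 to 1.33, Rarg from -3.23 to 1.50 and Crabp1 from -0.44 to 0.78. The other 6 kept their direction, which is fixed for genes whose groups do not overlap. The median log2 fold change of all genes was 0.08 with limma and -0.08 with DESeq2, where Rxrg was at 1.50.

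Dividing by length moved the share of Rxrg to 69.1% in fear conditioned and 52.5% in home cage libraries, that of Rxrb to 28.6% and 38.9%, and that of Rxra in fear conditioned libraries to 2.31%. Without division by length, Rxrb was 2nd, Rbp4 4th, Crabp1 5th, Rxra 6th and Aldh1a1 7th of the 9. No paired analysis was possible because the groups share no replicate numbers. Rarg, Crabp2, Rdh12 and Pparg had few reads in some libraries. Home cage replicate 6 had the most recovered reads (27937520), with 0 reads of Crabp2, Rdh12 and Pparg and 2 of Rarg.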

Other observations

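Genes with profiles most like those of the other retinoid genes were looked up after their values were seen. For Rarb the nearest, by the same root mean square difference over the 5 libraries, was Pde1b (0.0363), a calmodulin-dependent phosphodiesterase of striatal neurons, followed by Gng7 (0.0630), the G protein gamma subunit of the same neurons, Ndfip2 (0.0712), Gpr12 (0.0829) and Ddx20 (0.0839). For Rbp4 the nearest were Rrp15 (0.0424), Dclk3 (0.0507), Cnih4 (0.0722), Ngef (0.0940) and Nexn (0.0981). For Rxra they were Wdr74 (0.0412), Dpm2 (0.0467), Ier3ip1 (0.0472), Smc3 (0.0583) and Maea (0.0592), each highest in home cage replicate 7 as Rxra was. The nearest profile to Rxrg, by comparison, was at 0.112.

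Stra6 and Rarg had their highest value in home cage replicate 7 (20.1 and 27.4 CPM) and their lowest in home cage replicate 6, with 0 and 2 reads. Rdh5, Rdh10, Rdh13 and Rlbp1 were the other way round, with 430, 590, 565 and 721 reads in home cage replicate 6 and 0, 13, 11 and 8 reads in replicate 7.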
